A study of Drosophila melanogaster with 12 samples.

Results

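Ovary RNA of Drosophila melanogaster was compared between flies without a working copy of nxf2 (nxf2 -/-) and flies with 1 copy (nxf2 +/-), both of which also carried Panx FL10B. These are 4 libraries, 2 per genotype, chosen by their labels out of 12 in the series, and every gene of the count table was examined. The genotype label of all 4 calls Panx FL10B tethered, so it is shared by mutant and control, and the sources used here do not say what FL10B means. The nxf2 mutant was made by CRISPR/Cas9 editing, the flies were fed yeast, and their age is given as 3-5 with no unit. For 1 comparison, 4 further libraries without Panx FL10B were used, 2 of the nxf2 -/- mutant and 2 of the wild-type stock W1118. The last 4, 2 labelled attp2 of wild-type genotype and 2 with nxf2 knocked down, entered no comparison here, but all 12 libraries set the spread behind every test. That spread, as a biological coefficient of variation, was 0.102, against 0.0376 for the 4 Panx FL10B libraries fitted alone, where 3690 genes were called in place of 1686. No RNA of the transposons themselves was analysed here.

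Nxf2 is a relative of the general messenger RNA export receptor, and Panx (listed as CG9754) is a nuclear factor that acts after the Argonaute protein Piwi has found a nascent transposon RNA, when heterochromatin is laid down over it. A protein tethered to a reporter RNA can be tested for silencing that reporter without Piwi. The ovary in which this takes place is a row of egg chambers, each with a germline cyst inside a layer of somatic follicle cells. In the last stages the follicle cells secrete the vitelline membrane, then the chorion and its outer coat, and the chorion genes lie in clusters that these cells copy many times over by firing the same replication origins again. The finished follicle is then ruptured and released under the control of octopamine.

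The total counts were 5014910 and 6457363 in the heterozygote and 7777177 and 6757748 in the mutant. Of 15446 genes in the table, 8638 passed the filter on low counts and were tested. Levels are given as CPM, counts relative to the library total, in replicates 1 and 2 of each genotype, in that order, after TMM scaling. Differences are log2 fold changes of mutant over heterozygote with their standard error (SE), from edgeR's quasi-likelihood test on all 12 libraries with Benjamini-Hochberg adjustment over all tested genes, and a gene was called at an adjusted p under 0.05. Replicates agreed closely, with a Pearson's r across genes of 0.995 in the heterozygote and 0.996 in the mutant, and the first principal component of the 4 libraries held 94.6% of their variance and separated the genotypes. Nothing says that replicates came from separate flies or cultures. The p-values therefore measure only the spread between libraries of a group, over all 12, which may be technical. The chi-square between replicates per degree of freedom was 2.47 in the heterozygote and 2.02 in the mutant with Panx FL10B. It was 35.7 in attp2, 16.8 in the knockdown, 11.5 in the mutant without Panx FL10B and 1.59 in W1118. Ovarian markers were present in all 4 libraries. Marker sums are in CPM of all counts, without TMM scaling. The 5 germline markers vas, nos, osk, bam and aub summed to between 2478 and 2646 CPM in the heterozygote and between 3075 and 3134 CPM in the mutant, and 5 follicle cell markers to between 6957 and 7044 and between 4113 and 4304 CPM.

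The mutant differed from the heterozygote in 1686 of the 8638 tested genes, 19.5% of them, with 801 higher (9.27%) and 885 lower (10.2%). The falls were the larger changes. Among genes that changed at least 16-fold, 78 were lower and 5 higher, and among those that changed at least 4-fold 143 were lower and 74 higher. The median log2 fold change of all tested genes was -0.01. With any 1 of the 4 libraries left out, 721 to 802 genes were called, and no gene called in the full comparison changed sign. The genes named below kept their calls in each of these 4 fits unless a sentence says otherwise.

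**Figure D1:**
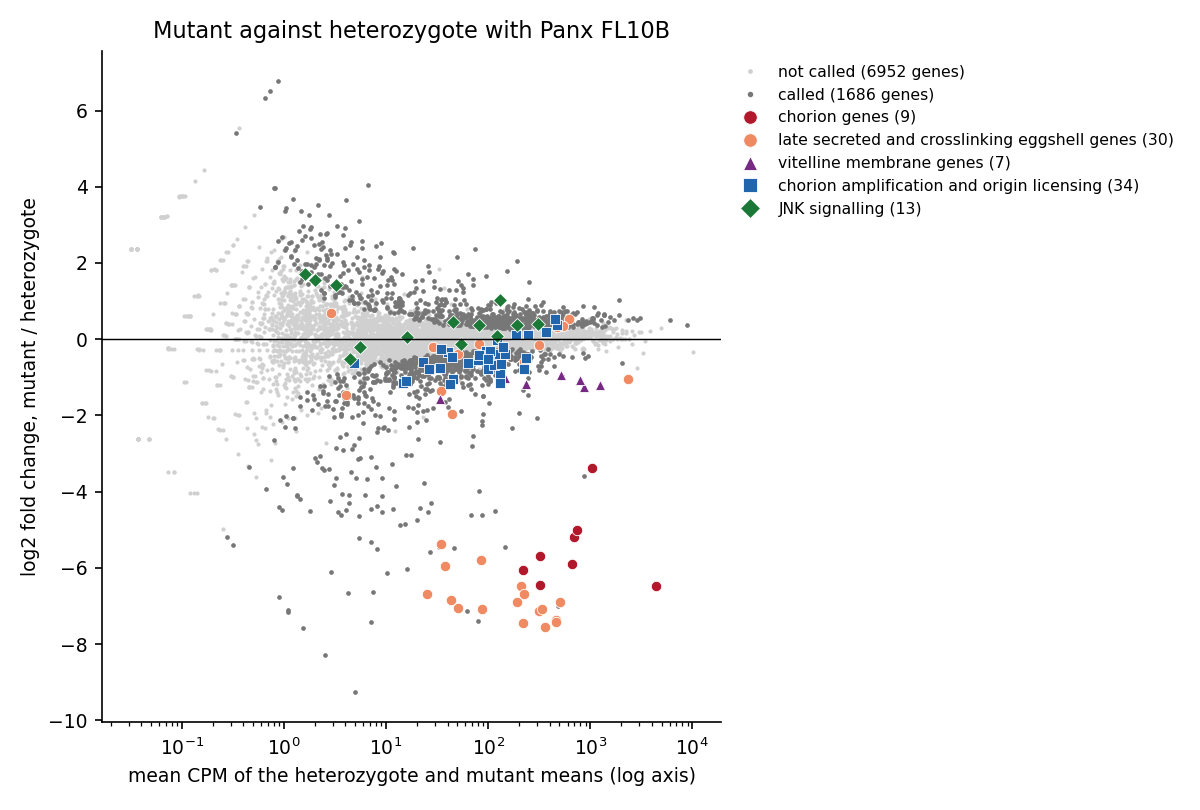
Each point is 1 tested gene, with its mean level in CPM on a log axis and the log2 fold change of mutant over heterozygote with Panx FL10B; coloured points are members of 5 gene lists. The 9 chorion genes lie between -7.36 and -3.39 and most late secreted eggshell genes near them, far below the grey cloud, whose median is -0.01.

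The genes of the silencing complex were examined first. In the libraries labelled heterozygote, nxf2 stood at 34.6 and 35.8 CPM and in those labelled mutant at 30.2 and 30.1 CPM. The difference of -0.22 (SE 0.15) did not pass (adjusted p = 0.334), so the RNA does not check the genotype, which rests on the labels. Panx was at 339 and 340.3 CPM in the heterozygote and 292 and 299 CPM in the mutant, and its log2 difference of -0.20 (SE 0.09) had an adjusted p of 0.162. Its level varied among the groups not labelled with Panx FL10B. It was at 45.7 ± 2.29 CPM in W1118 and 39.8 ± 0.98 CPM in the mutant there (SD, n = 2). In attp2 it was at 144 ± 18 CPM and in the knockdown at 229 ± 4.96 CPM. Nxt1, the small partner of the export receptors, had 24.6 and 25.8 CPM against 23 and 24.2 CPM (adjusted p = 0.797), and piwi 276 and 279.6 CPM against 285 and 306 CPM (adjusted p = 0.891). Of 19 tested genes of piRNA-guided transcriptional silencing, 3 were called higher and 2 lower, 1 to 2 and 1 with 1 library left out. The share called in this list was 26.3%, beside 19.5% of all tested genes. Rpd3, the histone deacetylase HDAC1, fell from 239 and 236 CPM to 130.1 and 135 CPM (log2 fold change -0.84, SE 0.09, adjusted p = 2.37e-05). G9a, a histone H3 lysine methyltransferase, rose from 779 and 733 CPM to 1057 and 1067 CPM (log2 fold change 0.49, SE 0.09, adjusted p = 0.00127).

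Genes of the outer eggshell fell far in the mutant. All 9 tested chorion protein genes were called lower, with a median of -5.89 on the log2 scale and a range from -7.36 to -3.39. Cp16 was at 795 and 1026 CPM in the heterozygote and 7.03 and 3.89 CPM in the mutant (log2 fold change -7.36, SE 0.56, adjusted p = 8.59e-05). Cp7Fa, of the cluster on the X chromosome, went from 639 and 623 CPM to 7.15 and 7.2 CPM (log2 fold change -6.46, SE 0.39, adjusted p = 6.02e-06). In the same cluster, Cp7Fb had 406 and 452 CPM against 5.9 and 6.91 CPM, a log2 fold change of -6.07, and Cp7Fc 1267 and 1367 CPM against 24.6 and 19.6 CPM, one of -5.89. In these 4 genes every heterozygote library lay far above both mutant libraries. Cp36 at -5.01 (SE 0.25, adjusted p = 7.28e-08), Cp38 at -6.47 (SE 0.21, adjusted p = 1.26e-10) and Cp19 at -5.20 (SE 0.45, adjusted p = 0.000139) also fell. Cp15 fell least and kept 235 and 125 CPM in the mutant from 1868 and 1909.9 CPM (log2 fold change -3.39, SE 0.33, adjusted p = 0.000174). Cp18 fell from 654 and 615 CPM to 14.9 and 9.36 CPM (log2 fold change -5.69, SE 1.02, adjusted p = 0.00927). This call was lost without mutant replicate 1 or 2. Of the 6 groups that set its spread, attp2 had the largest SD, at 2117 ± 2203 CPM (SD, n = 2). Together the 9 genes took 1.81% and 1.84% of all counts in the heterozygote libraries and 0.0507% and 0.0339% in the mutant libraries, with 95% Clopper-Pearson intervals of 1.79 to 1.82%, 1.83 to 1.85%, 0.0491 to 0.0523% and 0.0326 to 0.0353%, which cover counting error only. In bulk ovary RNA, fewer late follicle cells and less RNA in each of them cannot be told apart.

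Genes of the late secreted coat and its crosslinking moved with the chorion genes. Of 30 tested members 22 were called lower and 2 higher, with a median log2 fold change of -5.88. The mucin gene Muc12Ea went from 975 and 876 CPM to 5.77 and 4.9 CPM (log2 fold change -7.43, SE 0.17, adjusted p = 2.45e-12), and Muc4B, another mucin gene, from 709 and 741 CPM to 4.27 and 3.31 CPM (log2 fold change -7.56, SE 0.17, adjusted p = 2.45e-12). Mur11Da, a mucin-related gene, had 439 and 432 CPM against 2.51 and 2.45 CPM (log2 fold change -7.45, SE 0.25, adjusted p = 2.31e-10), and Femcoat 379.7 and 373 CPM against 3.14 and 3.17 CPM (log2 fold change -6.89, SE 0.48, adjusted p = 3.14e-05). In none of these 4 genes did a mutant library exceed 5.77 CPM. CG4009, a predicted peroxidase gene, fell from 450.3 and 442 CPM to 5.4 and 3.02 CPM, and the paired genes yellow-g and yellow-g2, which are needed for a sound eggshell, from 164 and 174 CPM to 3.51 and 2.45 CPM and from 67.4 and 67 CPM to 1.51 and 1.73 CPM. Their log2 fold changes were -6.70, -5.80 and -5.37, with adjusted p of 1.09e-09, 7.05e-11 and 6.54e-10. The other members named by size of fall, CG15570 at -7.36 (SE 0.46, adjusted p = 1.69e-05), CG11381 at -7.15 (SE 0.24, adjusted p = 2.21e-10), CG32642 at -7.08 (SE 0.25, adjusted p = 4.83e-10), CG1077 at -7.07 (SE 0.28, adjusted p = 4.97e-10), CG31926 at -7.06 (SE 0.32, adjusted p = 1.68e-09) and CG13083 at -6.91 (SE 0.68, adjusted p = 0.000465), came from levels of 97.6 to 1004 CPM in the heterozygote and were at 0.72 to 9.16 CPM in the mutant. CG13114 stood at -6.48 (SE 0.17, adjusted p = 8.76e-12), from 417 and 419 CPM to 5.65 and 3.6 CPM.

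Other members of the same list fell less, were not called or rose. dec-1, whose product is cut into several eggshell proteins and which is made earlier than the chorion proteins, fell from 3194 and 3088 CPM to 1487 and 1554 CPM (log2 fold change -1.05, SE 0.10, adjusted p = 8.76e-06). Fcp3C, a follicle cell protein gene, fell from 48.2 and 50.9 CPM to 19.1 and 19.3 CPM (log2 fold change -1.37, SE 0.22, adjusted p = 0.00075). The peroxidase gene Pxt was at 335 and 323 CPM and 294 and 302 CPM and was not called (adjusted p = 0.288). clos, which acts with fs(1)M3 in the eggshell and in patterning the embryo's ends, rose from 524 and 498 CPM to 739.9 and 734 CPM (log2 fold change 0.53, SE 0.10, adjusted p = 0.00288). The second gene that rose, fs(1)M3, went from 482 and 477 CPM to 599 and 612 CPM (log2 fold change 0.34, SE 0.08, adjusted p = 0.0128), and its call was lost with any 1 of the 4 libraries left out, with an adjusted p from 0.0796 to 0.105.

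The vitelline membrane genes fell much less than the chorion genes, by a median log2 of -1.18 against -5.89. All 7 tested members were called lower, in a range from -1.57 to -0.95 that lies apart from the range of the chorion genes. Vm34Ca, the highest of them, had 1709 and 1733 CPM in the heterozygote and 730.1 and 778 CPM in the mutant (log2 fold change -1.19, SE 0.15, adjusted p = 0.000121). Vm26Aa went from 1234 and 1226 CPM to 506 and 529.9 CPM, Vm26Ab from 1106 and 1053 CPM to 479 and 551 CPM and Vm26Ac from 50.5 and 50.8 CPM to 18.8 and 15.3 CPM, with log2 fold changes of -1.25, -1.07 and -1.57. The remaining members stood at -1.18 (SE 0.09, adjusted p = 8.49e-07) for Vm32E, -1.01 (SE 0.09, adjusted p = 3.77e-06) for psd and -0.95 (SE 0.11, adjusted p = 4.98e-05) for Vml, which also carries signals for embryonic patterning. Mutant and heterozygote libraries overlapped for none of the 7, but also for none of the 1686 called genes. Of all tested genes 69.6% had no overlap.

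**Figure D2:**
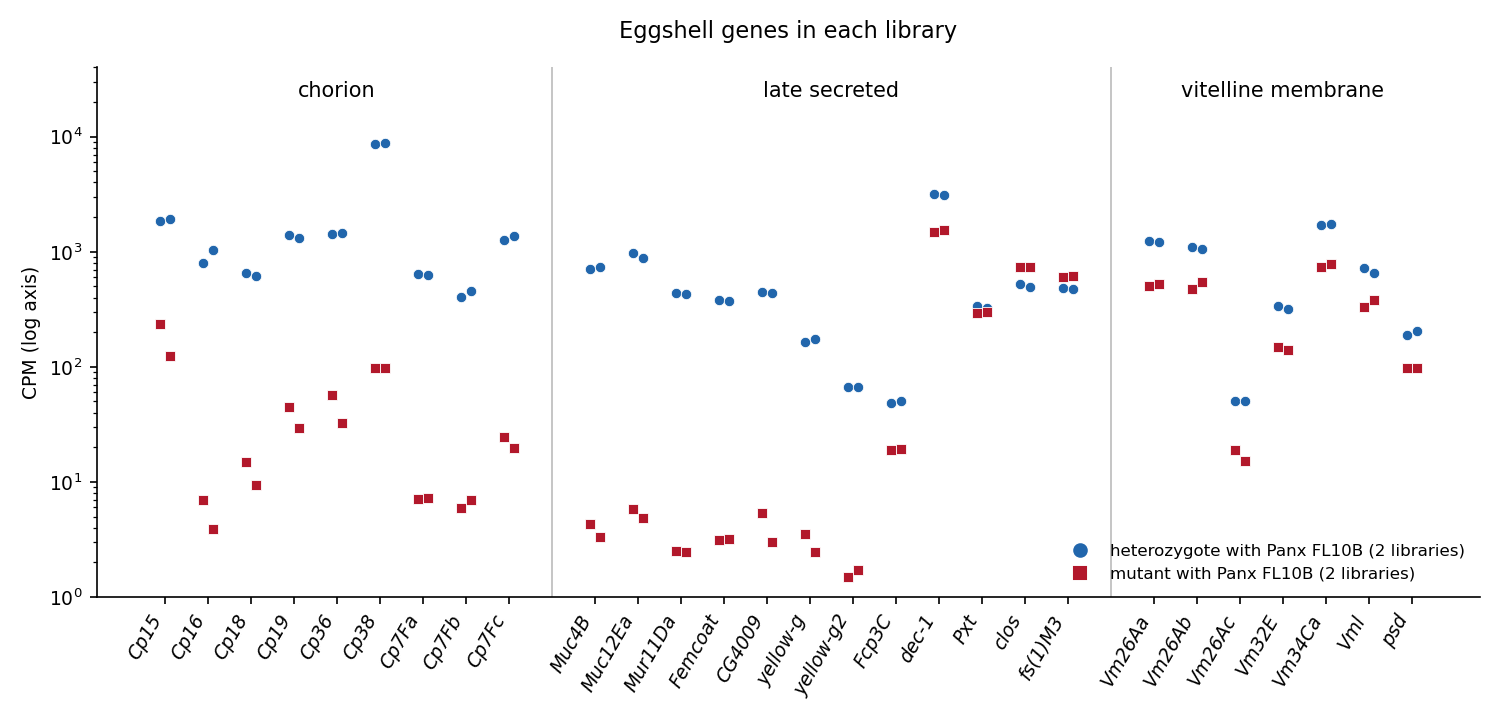
Level of eggshell genes in each of the 4 libraries, in CPM on a log axis; circles are the 2 heterozygote libraries and squares the 2 mutant libraries. The squares lie far below the circles for the chorion genes and the first 7 late secreted genes, closer for the vitelline membrane genes, Fcp3C and dec-1, and slightly above for clos and fs(1)M3.

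Outside the lists, 3 further genes that were named after their values were seen had the same direction. Cad74A, a cadherin gene with a pattern in the follicle cells of the eggshell's dorsal appendages, fell from 134 and 126 CPM to 4.77 and 5.9 CPM (log2 fold change -4.61, SE 0.17, adjusted p = 2.33e-10). Mur2B, another mucin-related gene, fell from 1641 and 1591 CPM to 137 and 131 CPM (log2 fold change -3.59, SE 0.13, adjusted p = 2.26e-10), and CG14309 from 483 and 485 CPM to 115 and 116 CPM (log2 fold change -2.07, SE 0.17, adjusted p = 1.92e-06). Of the 15 largest falls among genes with a mean of at least 10 CPM in 1 genotype, 4 were of genes in no list. CG4066 had 165 and 154 CPM against 1 and 0.864 CPM (log2 fold change -7.39, SE 0.34, adjusted p = 9.34e-09), CG43333 127 and 122 CPM against 1.13 and 0.576 CPM (log2 fold change -7.13, SE 0.25, adjusted p = 1.91e-10) and CG13084 990.5 and 945 CPM against 8.03 and 6.91 CPM (log2 fold change -7.01, SE 0.28, adjusted p = 2.49e-09). CG43250 had 172 counts in the 2 heterozygote libraries together and 1 count in the 2 mutant libraries, a ratio of 212 with a 95% counting interval from 37.6 to 8438 (adjusted p = 0.0114), and its call was lost without mutant replicate 1 or 2, with an adjusted p of up to 0.0764.

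Genes next to the chorion clusters were called in shares of 20.0% and 25.0%, near the 19.5% of all tested genes. The order of genes was taken from RefSeq, which matched 98.7% of the tested genes by name, and no coordinates are given because its assembly differs from the build the authors used. Next to the X cluster, of the 10 tested genes on each side, 2 were called higher and 2 lower, with a median log2 fold change of -0.04, while the 5 chorion genes between them lay at -6.47 to -5.01. otu, a gene of early germline development that borders Cp38, was not called, at a log2 fold change of 0.19 (adjusted p = 0.359). Next to the cluster on arm 3L, 1 of 20 was called higher and 4 lower, with a median of 0.00. CG43965, which borders Cp18, fell from 13.1 and 18.8 CPM to 0.376 and 0.288 CPM (log2 fold change -5.52, SE 0.41, adjusted p = 5.67e-07). Of the other 3 called lower there, Cdc6, a helicase loader, stood at -0.82 (SE 0.13, adjusted p = 0.000737). The helicase subunit Mcm7 at -0.42 (SE 0.12, adjusted p = 0.0203) was not called with any 1 library left out (adjusted p from 0.104 to 0.143), and GAPsec at -0.58 (SE 0.14, adjusted p = 0.0119) lost its call without heterozygote replicate 2 or either mutant replicate (adjusted p up to 0.152).

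**Figure D3:**
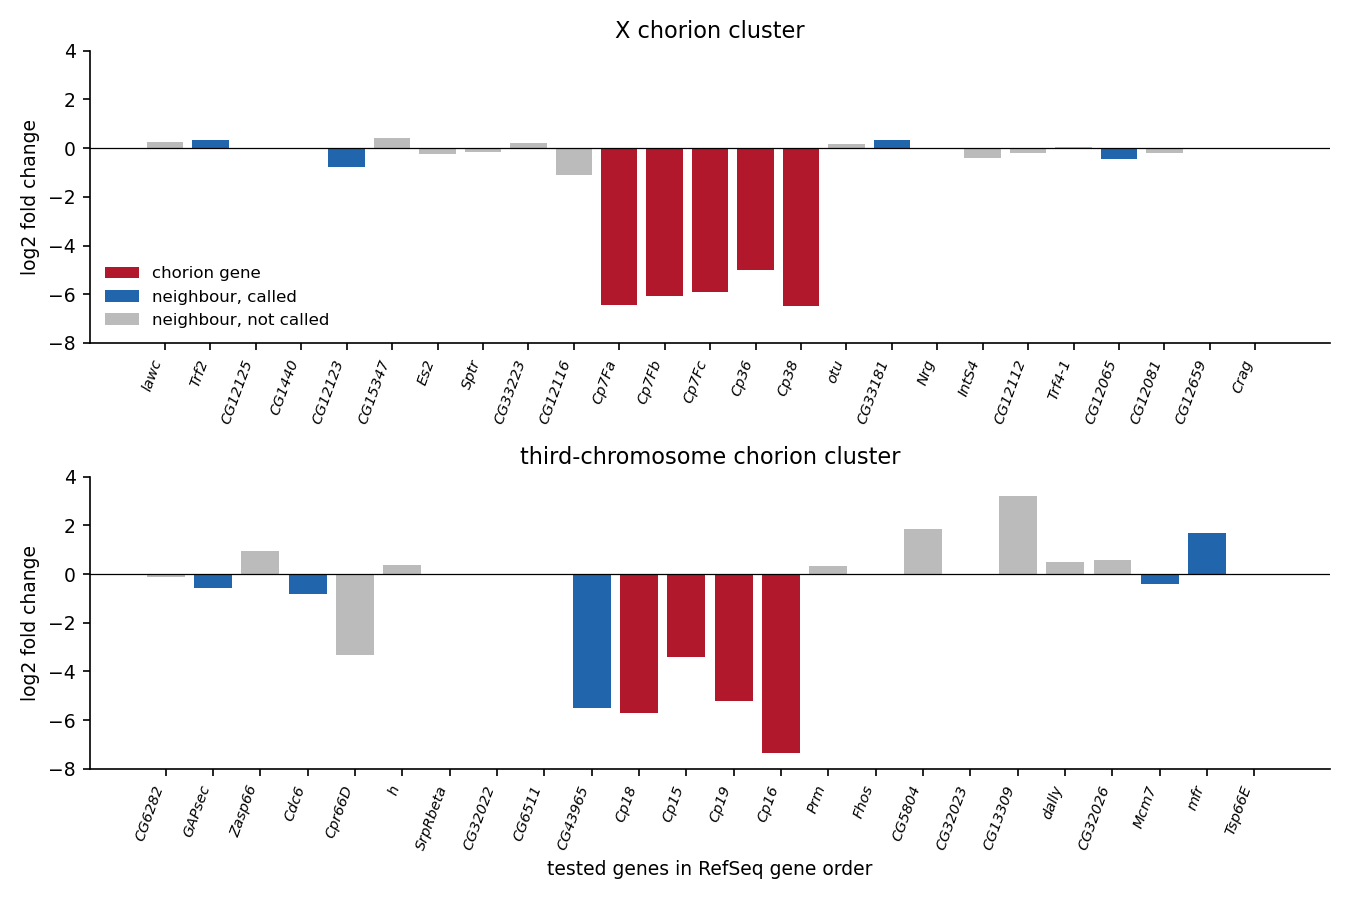
Log2 fold change of mutant over heterozygote for the 10 tested genes on each side of the 2 chorion clusters, in RefSeq gene order; red bars are chorion genes, blue bars neighbours that were called and grey bars neighbours that were not. The red bars of the X cluster reach -6.47, and of the neighbours called there none goes below -0.76; CG43965 on the border of the second cluster is at -5.52.

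Genes that license and fire replication origins, the machinery that chorion gene amplification uses, were mostly lower in the mutant. Of 34 tested members 22 were called lower and 2 higher, with a median log2 fold change of -0.53 beside -0.01 for all tested genes. With any 1 library left out, 14 to 15 were called lower and 1 higher. Orc1, a subunit of the origin recognition complex, fell from 187 and 178 CPM to 74.7 and 88.4 CPM (log2 fold change -1.16, SE 0.13, adjusted p = 2.64e-05). Orc2, another subunit, fell from 57.7 and 59.8 CPM to 26 and 26.1 CPM (log2 fold change -1.18, SE 0.15, adjusted p = 9.51e-05). dup, the loading factor Cdt1, fell from 282 and 289 CPM to 161 and 169 CPM (log2 fold change -0.79, SE 0.09, adjusted p = 4.28e-05). Its inhibitor geminin fell from 171 and 157 CPM to 109 and 99.4 CPM (log2 fold change -0.65, SE 0.12, adjusted p = 0.00155). These are all called in the same direction as the helicase subunits Mcm2 at -0.91 (SE 0.13, adjusted p = 0.00032) and Mcm3 at -1.06 (SE 0.15, adjusted p = 0.000317). The largest rise of the list was chif, the activating subunit of the origin-firing kinase Cdc7, which amplification of the chorion genes requires. It went from 371 and 364 CPM to 532 and 537 CPM (log2 fold change 0.54, SE 0.09, adjusted p = 0.00111). CycE, the cyclin of the endocycle, fell from 273 and 276 CPM to 197 and 195 CPM (log2 fold change -0.48, SE 0.08, adjusted p = 0.00133).

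Genes of follicle rupture and egg release were mostly lower. Of 9 tested genes of ovulation and octopamine signalling 5 were called lower and 1 higher, with a median of -1.14. Oamb, the octopamine receptor of mature follicle cells, went from 15.5 and 19.4 CPM to 1.38 and 0.576 CPM (log2 fold change -4.11, SE 0.42, adjusted p = 2.2e-05). Nox, an NADPH oxidase that acts in the same release, had 40.5 and 48 CPM against 4.27 and 2.02 CPM (log2 fold change -3.79, SE 0.31, adjusted p = 3.4e-06). The transcription factor gene sim fell from 33.3 and 30.8 CPM to 9.79 and 7.2 CPM (log2 fold change -1.90, SE 0.17, adjusted p = 3.62e-06). The matrix protease gene Mmp2, which breaks down the follicle wall, fell from 43.5 and 50.4 CPM to 20.6 and 22 CPM (log2 fold change -1.14, SE 0.19, adjusted p = 0.000717). Octbeta2R, a second octopamine receptor, fell from 6.81 and 9.42 CPM to 2.51 and 2.59 CPM (log2 fold change -1.68, SE 0.34, adjusted p = 0.00397), a call lost without heterozygote replicate 2 (adjusted p = 0.0634). The gene that rose was SPR, the sex peptide receptor, from 3.78 and 2.65 CPM to 14.3 and 14 CPM (log2 fold change 2.15, SE 0.32, adjusted p = 0.000398). Of the 3 markers chosen for seminal organs and oviduct, only Ilp7 had counts, and it fell with these genes. The sum of the 3 was 7.18 to 7.43 CPM in the heterozygote and 0.257 to 0.296 CPM in the mutant. The other 2 had no count in any of the 4 libraries, so the set gives no separate reading of these tissues. The part of oviduct tissue in the falls was not tested.

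Hormone genes were called in both directions. The relaxin-like peptide gene Ilp8, which mature follicle cells express, fell from 39.4 and 37.5 CPM to 2.01 and 0.72 CPM (log2 fold change -4.76, SE 0.33, adjusted p = 4.03e-07). Ilp7, whose product comes from neurons that serve the oviduct, fell from 6.81 and 7.07 CPM to 0.251 and 0.288 CPM (log2 fold change -4.61, SE 0.65, adjusted p = 0.000268). Of the 14 tested genes of the insulin list these peptides were the 2 called lower. The 4 called higher, 2 to 3 with 1 library left out, act inside cells. foxo, the transcription factor that insulin signalling holds back, rose from 74 and 79.4 CPM to 138 and 128 CPM (log2 fold change 0.79, SE 0.10, adjusted p = 0.000118). Pi3K21B, the regulatory subunit of the insulin-stimulated lipid kinase, rose from 172 and 168 CPM to 281 and 275 CPM (log2 fold change 0.71, SE 0.09, adjusted p = 9.02e-05). In the juvenile hormone list, 3 of 6 were called higher and none lower (2 higher with 1 library left out). Met, the hormone's receptor, rose from 38.4 and 38 CPM to 75.9 and 79.3 CPM (log2 fold change 1.02, SE 0.11, adjusted p = 3.69e-05). Jheh3, a hormone-degrading epoxide hydrolase, rose from 37.1 and 41.2 CPM to 104 and 105 CPM (log2 fold change 1.41, SE 0.13, adjusted p = 4.62e-06). The ecdysone response had 5 of 21 higher and 4 lower, 1 to 4 and 2 to 3 with 1 library left out. ftz-f1, a nuclear receptor gene of the late response, rose from 351 and 351 CPM to 538 and 546 CPM (log2 fold change 0.63, SE 0.09, adjusted p = 0.000393). Cyp18a1, which inactivates ecdysone, and Sox14, a transcription factor gene that the hormone induces, fell by log2 fold changes of -0.99 (SE 0.19, adjusted p = 0.00224) and -0.83 (SE 0.13, adjusted p = 0.000461).

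The other lists of follicle cell signalling had calls in both directions, at shares of 21.4% to 25.0% beside the 19.5% of all tested genes. In the list of EGFR signalling and patterning 3 of 20 were higher and 2 lower, 1 to 2 and 0 to 1 with 1 library left out, with a median of 0.18. kek1, a feedback inhibitor of the EGF receptor, rose from 27.2 and 24.4 CPM to 77.9 and 71.7 CPM (log2 fold change 1.54, SE 0.20, adjusted p = 0.000143). Fas3, an adhesion gene of early follicle cells, fell from 72.1 and 73.5 CPM to 47.9 and 44.2 CPM (log2 fold change -0.66, SE 0.14, adjusted p = 0.00399), and its call was lost without mutant replicate 2 (adjusted p = 0.0563). Of 17 genes of Notch signalling and the switch to the endocycle 2 were higher and 2 lower, which became 0 and 1 with any 1 library left out. Of 14 genes of JAK/STAT signalling and border cells 2 were higher and 1 lower, 0 to 2 and 0 with 1 library left out. Of 9 ecdysone synthesis genes 1 was higher, 0 to 1 with 1 library left out. Among 7 nuclear export receptors and partners 1 was called higher, and its call did not last with any 1 library left out.

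Yolk protein genes, which follicle cells and fat body share, moved less evenly. Yp3 fell from 319.7 and 323 CPM to 84.6 and 81.9 CPM (log2 fold change -1.95, SE 0.18, adjusted p = 6.91e-06). Yp2 fell from 2495 and 2429 CPM to 1553 and 1657 CPM (log2 fold change -0.62, SE 0.16, adjusted p = 0.0137), but was not called with any 1 library left out (adjusted p from 0.0705 to 0.117). These were the 2 called of 10 tested yolk genes, a share of 20.0% beside 19.5% of all tested genes. In the maternal dorsoventral list the share was 33.3%. Of 15 tested genes of the maternal dorsoventral pathway 5 were called lower, 1 to 4 with 1 library left out, and none higher, and ndl, the protease gene that heads the pathway in follicle cells, went from 278 and 263 CPM to 171 and 187 CPM (log2 fold change -0.60, SE 0.10, adjusted p = 0.00126).

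**Figure D4:**
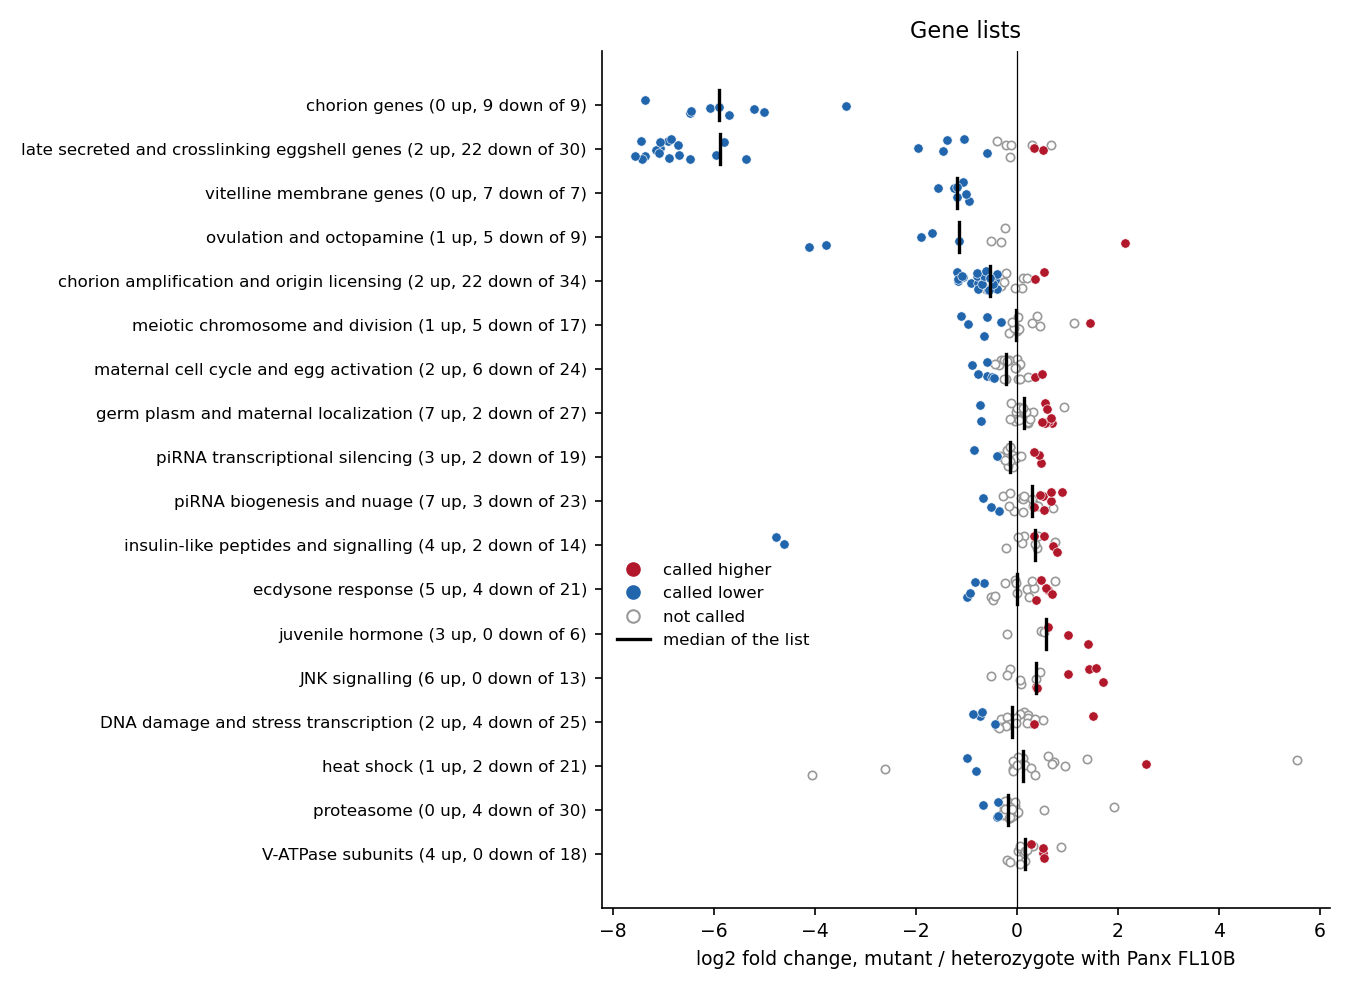
Log2 fold change of every tested member of 18 gene lists; each point is a gene, filled red or blue where it was called higher or lower and open where it was not, and the black bar is the median of the list. The chorion list has its median at -5.89, the vitelline membrane list at -1.18 and origin licensing at -0.53, and JNK signalling and juvenile hormone have medians of 0.38 and 0.58.

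In the germline, genes of the germ plasm and of maternal RNA localization were changed in both directions. Of 27 tested, 7 were called higher, 5 with any 1 library left out, and 2 lower, with a median of 0.15. osk, which nucleates the germ plasm, rose from 1098 and 1034 CPM to 1625 and 1714 CPM (log2 fold change 0.65, SE 0.09, adjusted p = 0.000263). tud, a germ plasm scaffold gene, rose from 581 and 519.7 CPM to 871 and 884 CPM (log2 fold change 0.67, SE 0.09, adjusted p = 0.000253). orb, which drives translation of osk, rose from 566 and 565 CPM to 940.0 and 906 CPM (log2 fold change 0.71, SE 0.09, adjusted p = 9.66e-05). pum, a translational repressor gene, rose by a log2 of 0.60 (SE 0.10, adjusted p = 0.000988). Its partner nos fell from 395 and 370.1 CPM to 236 and 233 CPM (log2 fold change -0.70, SE 0.13, adjusted p = 0.00207). exu, which localizes the bcd message, fell from 130.4 and 139 CPM to 85.2 and 77 CPM (log2 fold change -0.73, SE 0.11, adjusted p = 0.000485). The share called in this list was 33.3%, beside 19.5% of all tested genes. The summed germline markers, 3075 to 3134 CPM in the mutant against 2478 to 2646 CPM, include osk and nos themselves and so give no separate reading of germline content.

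Genes that renew and differentiate the germline stem cells had 6 of 17 higher and 2 lower, 2 to 3 and 1 with 1 library left out. mei-P26, a differentiation gene, rose from 426 and 428 CPM to 715 and 699 CPM (log2 fold change 0.73, SE 0.10, adjusted p = 0.000253). bel, an RNA helicase gene, rose from 342 and 329.9 CPM to 481 and 465 CPM (log2 fold change 0.49, SE 0.09, adjusted p = 0.00165). Genes of meiotic chromosomes and the divisions had 1 of 17 higher and 5 lower, 0 and 2 to 4 with 1 library left out. sub, a kinesin gene of the meiotic spindle, fell from 134 and 153 CPM to 64.1 and 69 CPM (log2 fold change -1.11, SE 0.11, adjusted p = 1.68e-05), and mei-S332, which protects centromere cohesion, stood at -0.66 (SE 0.11, adjusted p = 0.000926). In the list of maternal cell cycle and egg activation genes, 6 of 24 were called lower and 2 higher, and with any 1 library left out 4 and none. fzy, an activator of the anaphase-promoting complex, fell from 88.7 and 81.1 CPM to 43.8 and 47.9 CPM (log2 fold change -0.89, SE 0.14, adjusted p = 0.000601). twe, the meiotic Cdc25 phosphatase gene, fell from 145 and 139 CPM to 94.9 and 92.6 CPM (log2 fold change -0.60, SE 0.11, adjusted p = 0.00145). The shares called were 47.1% for the stem cell list, 35.3% for the meiotic list and 33.3% for the maternal cell cycle list. Over all tested genes it was 19.5%.

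Factors that make piRNAs were called in both directions, more of them higher. Of 23 tested genes of piRNA biogenesis and the nuage 7 were called higher, 5 to 6 with 1 library left out, and 3 lower, a count of 0 with any 1 library left out. qin, a Tudor and RING domain gene that keeps the ping-pong cycle between different Argonautes, rose from 71.3 and 68.3 CPM to 130.0 and 130.5 CPM (log2 fold change 0.90, SE 0.10, adjusted p = 2.64e-05). papi, a Tudor gene that acts in trimming piRNAs, rose from 90.1 and 82.3 CPM to 136 and 139 CPM (log2 fold change 0.67, SE 0.10, adjusted p = 0.000412). armi, an RNA helicase gene, rose from 307 and 293 CPM to 419 and 437 CPM (log2 fold change 0.51, SE 0.10, adjusted p = 0.00287). The share called among the biogenesis and nuage genes was 43.5%. Of 17 genes of piRNA cluster transcription and export 4 were called higher, 1 to 2 with 1 library left out, and none lower. The share called in this list was 23.5%, beside 19.5% of all tested genes. del, a subunit of the complex that licenses transcription of the clusters, rose from 240.1 and 242 CPM to 326 and 340.2 CPM (log2 fold change 0.46, SE 0.10, adjusted p = 0.00405).

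The apoptosis list held a pair of genes that rose. rpr, an inducer of apoptosis, went from 2.46 and 2.8 CPM to 14.4 and 16 CPM (log2 fold change 2.52, SE 0.30, adjusted p = 5.9e-05), and hid, listed as W, from 19.7 and 19.1 CPM to 47.6 and 50 CPM (log2 fold change 1.33, SE 0.25, adjusted p = 0.0022). No other of the 13 tested apoptosis genes was called higher, and 10 were not called. The share called was 23.1%, near the 19.5% of all tested genes. Of 25 genes of DNA damage and stress transcription, 2 were called higher and 4 lower, 1 and 3 with 1 library left out. Xrp1, a stress-induced bZIP gene, rose by a log2 of 1.51 (SE 0.11, adjusted p = 3.26e-07). RnrS and RnrL, the subunits of the enzyme that makes deoxynucleotides, fell from 470.0 and 474 CPM to 261 and 255 CPM (log2 fold change -0.87, SE 0.11, adjusted p = 0.00015) and from 297 and 283 CPM to 167 and 181 CPM (log2 fold change -0.74, SE 0.12, adjusted p = 0.000633). Atf3, a further bZIP gene named after its value was seen, rose from 39.9 and 32.1 CPM to 111 and 105 CPM (log2 fold change 1.58, SE 0.16, adjusted p = 1.75e-05).

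JNK signalling had 6 of 13 tested genes higher and none lower, with a median of 0.38, and 1 to 3 higher with any 1 library left out. puc, the phosphatase that JNK induces and that then shuts it down, rose from 81.5 and 91 CPM to 178 and 173 CPM (log2 fold change 1.02, SE 0.12, adjusted p = 5.6e-05). scaf, another JNK target, was at 1.89 and 1.62 CPM in the heterozygote and 5.65 and 3.74 CPM in the mutant (log2 fold change 1.43, SE 0.33, adjusted p = 0.00798), and its call was lost without heterozygote replicate 2 or mutant replicate 1 (adjusted p up to 0.111). For the kinase gene hep the log2 fold change was 0.37 (SE 0.11, adjusted p = 0.0266), and it was not called with any 1 library left out, with an adjusted p from 0.0921 to 0.2. Of these 3 genes puc kept its call with each library left out. Of 21 heat shock genes 14.3% were called, beside 19.5% of all tested genes. Hsp26 and Hsp27, which encode small heat shock proteins, were called lower, with Hsp27 falling from 669 and 723 CPM to 354 and 353 CPM (log2 fold change -0.98, SE 0.11, adjusted p = 4.92e-05) and Hsp26 at -0.81 (SE 0.11, adjusted p = 0.000206). Hsp70Ba, which has near-identical copies between which reads could be split, was called higher at 2.56 (SE 0.61, adjusted p = 0.00918), a call lost without heterozygote replicate 2 or mutant replicate 1 (adjusted p up to 0.132). Of 11 immune genes 3 were called lower, 2 with 1 library left out, and 1 higher. The antimicrobial peptide gene Dro fell from 11.7 and 9.28 CPM to 0.251 and 0.576 CPM (log2 fold change -4.64, SE 0.66, adjusted p = 0.000329) and IM4, a secreted immune-induced peptide gene, from 13.4 and 17.5 CPM to 0.878 and 0.576 CPM (log2 fold change -4.37, SE 0.51, adjusted p = 4.82e-05). Dif, a transcription factor of the Toll pathway, rose from 5.68 and 4.71 CPM to 16.6 and 20.4 CPM (log2 fold change 1.84, SE 0.27, adjusted p = 0.00031). The shares called were 46.2% for the JNK list and 36.4% for the immune list.

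Of 22 genes of glutathione transfer and detoxification 3 were higher and 4 lower, 0 to 1 and 2 to 3 with 1 library left out. Sod3, an extracellular superoxide dismutase gene, fell from 312 and 313 CPM to 125 and 125 CPM (log2 fold change -1.32, SE 0.09, adjusted p = 1.51e-07), and Cat, the catalase gene, stood at -0.55 (SE 0.11, adjusted p = 0.00233). Both remove reactive oxygen. The share called in the detoxification list was 31.8%, beside 19.5% of all tested genes. In the list of the integrated and unfolded protein stress responses 2 of 15 were higher and 2 lower, 2 and 1 with 1 library left out. The share called in this list was 26.7%, beside 19.5% of all tested genes. ImpL3, a lactate dehydrogenase gene, rose from 1.7 and 1.77 CPM to 6.15 and 5.47 CPM (log2 fold change 1.73, SE 0.30, adjusted p = 0.00115) and Atf6, a sensor of unfolded protein, from 62.8 and 61 CPM to 111 and 103 CPM (log2 fold change 0.79, SE 0.15, adjusted p = 0.00246), while Pdi, a protein disulfide isomerase gene, was at -0.45 (SE 0.09, adjusted p = 0.0024).

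The 15 largest rises, among genes with a mean of at least 10 CPM in 1 genotype, came mostly from low levels in the heterozygote. CG11893 had 0.568 and 0.883 CPM against 11.8 and 13.2 CPM (log2 fold change 4.05, SE 0.44, adjusted p = 2.56e-05), the furthest rise of this set. cngl, which encodes a cyclic nucleotide-gated channel, rose from 26.1 and 22.4 CPM to 127 and 120.4 CPM (log2 fold change 2.36, SE 0.21, adjusted p = 5.33e-06). CG15784 rose from 73 and 75.8 CPM to 319.7 and 295 CPM (log2 fold change 2.05, SE 0.13, adjusted p = 1.5e-07). In these 2 genes the heterozygote already held a clear level and the mutant libraries lay several times higher. Gyc-89Da, a guanylyl cyclase gene, rose from 1.7 and 3.09 CPM to 13.2 and 13.7 CPM (log2 fold change 2.44, SE 0.32, adjusted p = 0.000279). CG1090, a predicted ion exchanger gene, rose from 6.43 and 5.45 CPM to 31.7 and 29.9 CPM (log2 fold change 2.38, SE 0.24, adjusted p = 2.56e-05). dys, a bHLH-PAS transcription factor gene, rose from 17.4 and 19 CPM to 76.7 and 85.8 CPM (log2 fold change 2.15, SE 0.14, adjusted p = 9.03e-07). Dscam2, a cell adhesion gene of neurons, went from 3.22 and 5.01 CPM to 20.3 and 19.6 CPM (log2 fold change 2.25, SE 0.30, adjusted p = 0.000151). The cytochrome P450 genes Cyp6d2 at 2.28 (SE 0.37, adjusted p = 0.000755) and Cyp4p1 at 1.94 (SE 0.28, adjusted p = 0.000347) also belong to the set. A further P450 gene, Cyp12a4, at 1.92 (SE 0.44, adjusted p = 0.00883), lost its call without heterozygote replicate 1 or 2 (adjusted p up to 0.0818). CG32368 and CG11638 rose by log2 fold changes of 1.92 (SE 0.30, adjusted p = 0.000588) and 1.85 (SE 0.28, adjusted p = 0.000429).

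Markers of other tissues moved in both directions, and their part in the results above was not tested. The 6 markers of the ovarian muscle sheath summed to 162 to 165 CPM in the heterozygote and 275 to 281 CPM in the mutant, with 2 of 6 called higher. Neuronal markers summed to 19.5 to 21.7 CPM and 51.6 to 55.5 CPM, and elav, the pan-neuronal RNA-binding protein gene, rose from 11.2 and 12.8 CPM to 42.7 and 39.7 CPM (log2 fold change 1.77, SE 0.25, adjusted p = 0.000222). Hemocyte markers went the other way, from 147 to 165 CPM down to 54.5 to 60.5 CPM. Nearly all of that was srp, a GATA factor gene, which fell from 131 and 150.2 CPM to 34.8 and 37 CPM (log2 fold change -1.97, SE 0.21, adjusted p = 4.28e-05), while Hml, a defining hemocyte gene, was at 4.54 and 5.01 CPM and at 10.3 and 12.5 CPM (log2 fold change 1.25, SE 0.31, adjusted p = 0.0132), a call lost without heterozygote replicate 1 or 2 or mutant replicate 2 (adjusted p up to 0.115). Fat body markers summed to 9.91 to 9.97 CPM and 10.8 to 11.5 CPM, and of 4 tested 1 was called higher and 1 lower. The one called lower was Tsf1, a transferrin gene, which fell from 6.62 and 6.63 CPM to 0.878 and 0.864 CPM (log2 fold change -2.90, SE 0.41, adjusted p = 0.000319). Of the wider lists of these tissues, muscle had 4 of 19 higher and 1 lower, fat body 4 of 12 and 1, hemocytes with basement membrane 5 of 12 and 1, neurons 2 of 10 and none, the reproductive tract none of 3 and 2, and with any 1 library left out the counts of higher genes were at most 1, 1, 3, 1 and 1. trol and LanB1, basement membrane genes, rose by 0.77 (SE 0.15, adjusted p = 0.00281) and 0.62 (SE 0.12, adjusted p = 0.00249). None was called of 2 midgut enzyme genes, 3 testis genes, 4 cuticle genes and 2 transgene markers, lists of which few members passed the filter on low counts. Midgut markers summed to 1.24 to 1.6 CPM and 3.70 to 3.73 CPM, and testis markers to 0.399 to 0.465 CPM and 0.296 to 0.514 CPM, with 1 of 4 in the table at 0 in the heterozygote and 3 in the mutant.

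Ribosomal protein genes were mostly not called, and the proteasome list had 13.3% called. The share was 14.3% for aminoacyl-tRNA synthetases and 3.48% for small nucleolar RNA genes. Of 88 cytoplasmic ribosomal protein genes 3 were called higher and 1 lower, which is 4.55% beside the 19.5% of all tested genes. Of 72 mitochondrial ones 1 was called higher. Of 111 replication histone genes, 21 passed the filter on low counts and none was called. Their median log2 fold change was 0.00, the value taken by a gene without a count in either genotype. This list therefore cannot show whether histone RNA changed. With any 1 library left out, 1 cytoplasmic gene was higher and no mitochondrial one. RpL22-like, a variant of RpL22, is one of the 3, and rose by 3.65 (SE 0.57, adjusted p = 0.000895), from 0.568 and 0.589 CPM to 8.03 and 6.91 CPM. Its heterozygote level lay near the floor of 3 counts. Of 18 V-ATPase subunits 4 were called higher (22.2%), 3 with 1 library left out. Among them Vha44 stood at 0.55 (SE 0.09, adjusted p = 0.000866) and Vha26 at 0.53 (SE 0.10, adjusted p = 0.00301). Of 30 proteasome genes 4 were called lower, 0 to 2 with 1 library left out. Of these 4, Rpn12 and Pros26 lie 3 and 14 tested genes from nxf2. Of 21 aminoacyl-tRNA synthetase genes 3 were higher, a count of 0 with any 1 library left out, and of 230 small nucleolar RNA genes 4 were higher and 4 lower, 0 to 2 and 2 to 7 with 1 library left out.

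The mutant was also sequenced without Panx FL10B, and its difference from W1118 shares no library with the comparison above. W1118 is a wild-type stock and not a heterozygote, so the effects differ in their control as well as in Panx FL10B. The processing notes name featureCounts 1.6.1 for the libraries without Panx FL10B and no counting tool for those with it. CR32010 and CR32011 had no count in any Panx FL10B library. They were at 35.6 and 38.4 CPM in W1118 and 22.5 and 25.0 CPM in the mutant without Panx FL10B. Whether both sets of libraries were counted alike was not tested. Without Panx FL10B 1297 genes were higher (15%) and 1021 lower (11.8%). Of the 801 genes higher with Panx FL10B, 154 were also higher without it, which is 19.2% of the one list and 11.9% of the other, and 109 were lower. Of the 885 lower genes, 159 were also lower, 18.0% and 15.6% of the lists, and 165 were higher. The difference between the effects was called in 1833 genes (21.2%), 1065 to 1247 with any 1 Panx FL10B library left out, with the effect more positive with Panx FL10B in 800 and more negative in 1033.

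Chorion and late secreted eggshell genes differed between the effects. Cp38 was at 2031 ± 74.6 CPM in W1118 and 4837 ± 1574 CPM in the mutant without Panx FL10B (SD, n = 2), a log2 fold change of 1.25 (adjusted p = 0.000206), and with Panx FL10B at 8693 ± 52.6 and 97.7 ± 0.935 CPM. The difference of the effects was -7.73 (adjusted p = 2.31e-10). Muc4B rose without Panx FL10B from 251 ± 13.8 to 603 ± 38.7 CPM and fell with it, a difference of -8.83 (adjusted p = 6.99e-12). All 9 chorion genes had a called difference, and without Panx FL10B 3 of them were higher and none lower. Of the 30 late secreted genes 23 had a called difference, and without Panx FL10B 13 were higher and 3 lower. Vitelline membrane genes were mostly lower in both comparisons. Without Panx FL10B 4 of 7 were called lower and 1 higher, with a median of -0.47 beside -1.18, and the difference was called in 5 of 7. The level in the control differed as well. The chorion genes took 0.732% and 0.695% of the counts in the W1118 libraries and 0.944% and 1.32% in the mutant without Panx FL10B, against 1.81% and 1.84% in the heterozygote with it.

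**Figure D5:**
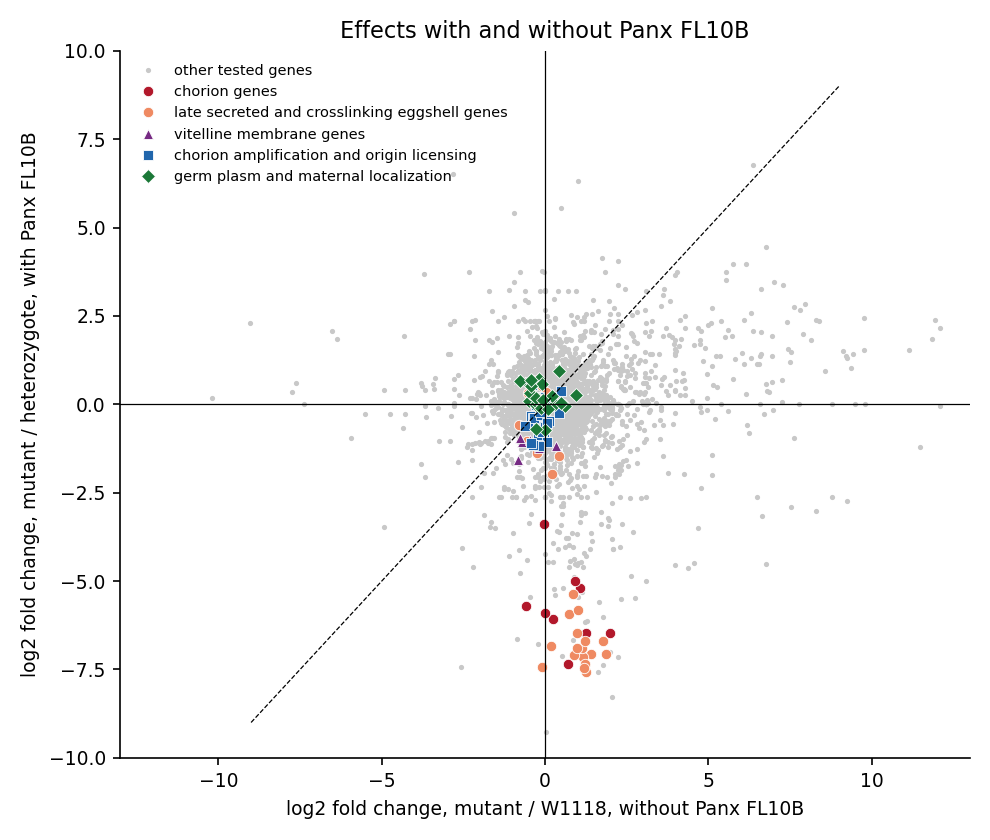
Log2 fold change of the mutant over its control without Panx FL10B (horizontal, against W1118) and with it (vertical, against the heterozygote), each point a tested gene; the dashed line marks equal effects. Most chorion and late secreted eggshell genes lie low on the vertical axis while near or right of 0 on the horizontal axis, with Cp38 at 1.25 and -6.47.

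Germline and replication genes differed between the effects too. osk fell without Panx FL10B, from 1537 ± 38.5 to 894 ± 5.4 CPM (log2 -0.78, adjusted p = 8.17e-05), and rose with it, a difference of 1.43 (adjusted p = 5.35e-06). In the origin licensing list the difference was called for 14 of 34 genes, among them Orc1 (-0.93, adjusted p = 0.00231) and dup (-0.76, adjusted p = 0.000971), neither of which was called without it (adjusted p = 0.182 and 0.833). rpr rose in both, by a log2 of 2.66 (adjusted p = 0.00141) without Panx FL10B, and its difference of -0.14 was not called (adjusted p = 0.889). Some genes with hardly a count in W1118 had a level in the heterozygote with Panx FL10B. dys had no count in W1118, 69.8 ± 5.25 CPM in the mutant without Panx FL10B, and with it 18.2 ± 1.12 CPM in the heterozygote, against 81.2 ± 6.47 CPM in the mutant. CG1090 gave the same order, with no count, then 63.6 ± 9.17 CPM, and 5.94 ± 0.697 and 30.8 ± 1.27 CPM with Panx FL10B. Cyp4p2 at 0.0766 ± 0.108, 67.2 ± 5.73, 27.7 ± 0.62 and 68.3 ± 5.21 CPM and CG31202 at 0 in both W1118 libraries and then 36.2 ± 2.2, 9.84 ± 1.07 and 28.6 ± 2.91 CPM, named after their values were seen, did likewise. In all 4 genes the heterozygote with Panx FL10B lay between W1118 and both mutant groups.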

How the data were processed

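Total ovary RNA was sequenced on Illumina instruments after priming with not-so-random primers, per the labels' protocols. Per the submitters' processing notes, reads of the Panx FL10B libraries were handled with bcl2fastq 1.8.4, cutadapt 1.16 and STAR 2.5.2a on dm3, and for their counts no tool, annotation or strand setting is named in those notes. The authors' deposited table holds raw counts per gene for 12 libraries.

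The counts of 6 groups of 2 were fitted in 1 model with edgeR 4.0.16 (R 4.3.3): filterByExpr, TMM scaling, a robust quasi-likelihood fit and 6 residual degrees of freedom, checked on simulated data. The biological coefficient of variation was 0.102. DESeq2 1.42.0 was an alternative. The named genes were the silencing factors, the 15 largest rises and falls with a mean of at least 10 CPM, the 3 called genes of smallest p in each of 45 lists, all chorion and vitelline members and the 4 largest differences of effect in each direction. Members and lists were chosen with earlier results of these data known, and further genes are marked as named after their values were seen. Same-numbered libraries of the 2 genotypes were not taken as pairs, since no label pairs them.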

Additional observations from a re-analysis of the deposited data

Results flagged for a closer look

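The effect of the mutation differed between the comparison with Panx FL10B and the one without it in 1833 genes by a test of the difference itself. W1118 is a wild-type stock and not a heterozygote, and the processing notes name a counting tool only for the libraries without Panx FL10B. Control, Panx FL10B and processing therefore cannot be told apart in these differences. The values below are the effect with Panx FL10B minus the effect without it, on the log2 scale. Among genes chosen for the size of this difference, the effect was more positive with Panx FL10B for Dfd at 11.32, CG13532 at 10.36, Cyp6d2 at 5.19 and CG12708 at 4.97, and more negative for CG4970 at -12.14, Cyp9b2 at -11.29, Syt4 at -10.01 and dys at -9.92. Mutant against heterozygote with Panx FL10B was itself not called for Dfd, CG13532, CG12708, CG4970 and Syt4 (adjusted p = 0.199, 0.962, 0.351, 0.997 and 0.0516). Dfd had means of 70.7 CPM in W1118 and 0.112 CPM in the mutant without Panx FL10B, but 0.0736 and 0.467 CPM in heterozygote and mutant with it. The difference was no longer called with 1 or more single libraries left out for CG13532, CG4970 and Syt4. Several of these genes have no count in 1 group, where the fitted value depends on the prior count and is no bound.

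Other named genes were called in opposite directions by the 2 comparisons. Eggshell genes that were lower with Panx FL10B and higher without it were Cp36 at -5.93, Cp38 at -7.73, Cp7Fa at -8.43, Vm32E at -1.51, Muc4B at -8.83, Mur11Da at -8.63, CG4009 at -7.93, yellow-g at -6.81 and yellow-g2 at -6.23. CG13083 of the late secreted list was not called without Panx FL10B (adjusted p = 0.135). Other uncharacterized genes of that list were lower with Panx FL10B and higher without it, with CG1077 at -8.49, CG11381 at -8.31, CG12716 at -8.47, CG13114 at -7.45, CG15570 at -8.58, CG31926 at -8.93 and CG32642 at -7.96. Outside the eggshell lists, CG13084 at -9.0, CG4066 at -9.16, CG43333 at -8.09, CG43965 at -7.85, Cad74A at -5.33 and Mur2B at -3.95 had the same directions. So did Dro at -9.02 and Tsf1 at -10.42, Mmp2 at -2.24, sim at -2.35 and srp at -2.71, Cyp18a1 at -1.95 and Sox14 at -1.61, Sod3 at -1.64, RnrS at -1.31, Pros26 at -0.85 and snoRNA:U3:9B at -3.51. The reverse, higher with Panx FL10B and lower without it, was found for osk at 1.43, tud at 1.10, pum at 0.95, Met at 1.47, ftz-f1 at 0.93, tai at 1.10, hep at 0.83, chif at 0.94, G9a at 0.80 and snoRNA:Or-CD12 at 1.97. Of the genes in this paragraph the call with Panx FL10B was lost with 1 or more single libraries left out for Pros26, hep, tai and snoRNA:Or-CD12, with adjusted p of up to 0.145, 0.2, 0.0741 and 0.0796.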

How the results depend on the processing

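No call of mutant against heterozygote changed sign under any alternative run. With the 4 Panx FL10B libraries fitted alone 3690 genes were called, 1920 higher and 1770 lower, among them 98.8% of the 1686, and 5 origin licensing and 15 germ plasm genes were higher. The coefficient of variation was then 0.0376, against 0.102 over all libraries. With 1 library left out at a time the ranges were 721 to 802 genes called, 277 to 338 higher, 425 to 472 lower, and 1065 to 1247 differences of effect, with 1 late secreted and 1 origin licensing gene higher, 14 to 15 licensing genes lower and 1 to 3 JNK genes higher. The log2 fold change of mutant over heterozygote turned sign for 2 genes that were not called in it, ranging for CG13532 from -0.50 without mutant replicate 1 to 0.59 and for CG4970 from -4.73 to 0.84. Without scaling, 709 of 1745 calls were higher, 40.6% against 47.5%. DESeq2 called 1379. With a replicate block 1410 genes were called, 1407 of them shared with the 1686, and same-numbered libraries deviated with a correlation of -0.106 over 6526 genes. Crossed pairs, added after seeing the data, gave 1435. The difference of effects could not be computed with the 4 libraries alone. Low counts limit genes near the floor of 3 counts per library.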

Other observations

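Lists put together after the values were seen are described here without a test of the list. Over all tested genes 9.27% were called higher and 10.2% lower. The shares called were 62.9% for mitosis and chromosome segregation, 27.6% for spliceosomal snRNA genes and 32.0% for translation initiation factors. Of 70 tested genes of mitosis and chromosome segregation 44 were called lower and none higher, with a median log2 fold change of -0.63 beside -0.01 for all tested genes, and 31 to 36 were lower with 1 library left out. pim, the securin that holds separase back, fell from 133 and 127 CPM to 48.3 and 44.5 CPM (log2 fold change -1.48, SE 0.16, adjusted p = 2.2e-05), and its partner thr from 179 and 168 CPM to 76.7 and 73.6 CPM (log2 fold change -1.21, SE 0.11, adjusted p = 5.33e-06). sti, the citron kinase of cytokinesis, stood at -1.68 (SE 0.20, adjusted p = 9.43e-05), tum, a subunit of centralspindlin, at -1.19 (SE 0.13, adjusted p = 2.34e-05), and bora, an activator of Aurora kinase, at -1.80 (SE 0.15, adjusted p = 2.42e-06). Genes of the centromere and of condensed chromosomes had the same direction. cid, the centromeric histone, fell from 54.3 and 52.7 CPM to 23.7 and 21 CPM (log2 fold change -1.25, SE 0.17, adjusted p = 0.00015), the kinetochore gene Spc25 stood at -1.22 (SE 0.17, adjusted p = 0.000281), and the condensin genes SMC2 and glu at -0.93 (SE 0.11, adjusted p = 5.02e-05) and -0.86 (SE 0.09, adjusted p = 2.66e-05).

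Chromosome 4, the small, mostly heterochromatic autosome, held 72 tested genes, of which 21 were called higher and 2 lower, with a median of 0.30. The share called was 31.9%, beside 19.5% of all tested genes. With 1 library left out, 5 to 10 were higher and 0 to 1 lower. pan, the transcription factor of Wnt signalling, rose from 29.9 and 31.9 CPM to 65 and 63.4 CPM (log2 fold change 1.05, SE 0.17, adjusted p = 0.000605), and CG32000 from 182 and 184 CPM to 288 and 294 CPM (log2 fold change 0.67, SE 0.10, adjusted p = 0.000393). Without Panx FL10B, in the mutant against W1118, 5 of the 72 genes were called higher and 17 lower, with a median of 0.01.

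Among RNA-processing genes, 8 of 29 tested spliceosomal snRNA genes were lower and none higher, with 2 to 4 lower when 1 library was left out. snRNA:U12:73B, which lies 20 tested genes from nxf2, fell from 9.84 and 15.2 CPM to 3.14 and 3.17 CPM (log2 fold change -2.0, SE 0.35, adjusted p = 0.00135). These genes have near-identical copies between which the counting could split reads. The small nucleolar RNA snoRNA:Me28S-A2634c had 177 and 267 CPM against 11.5 and 7.92 CPM (log2 fold change -4.50, SE 0.23, adjusted p = 9.34e-09). Of 25 translation initiation factor genes 8 were higher and none lower, 1 to 3 with 1 library left out, and eIF4G, the scaffold of the cap-binding complex, stood at 0.66 (SE 0.11, adjusted p = 0.000662). The stress-responsive noncoding RNA gene Hsromega rose from 64.7 and 71.8 CPM to 235 and 235 CPM (log2 fold change 1.78, SE 0.20, adjusted p = 6.54e-05).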
